A study of Homo sapiens with 4 samples.

Results

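The latest time point of a TGF-β1 time course, 7 days, was compared with untreated cells (Ctrl) gene by gene in OVCA420, an established epithelial ovarian cancer cell line. Single cells were profiled by droplet-based 3′ scRNA-seq, and each gene was described by the unique molecular identifiers (UMIs, one per captured transcript) summed over the cells of a library. Retained cells had over 200 detected genes and a mitochondrial share of UMIs of no more than 20%. These were 569 of the 572 7-day cells read and 933 of the 941 Ctrl cells read, or 1502 of the 3144 cells retained in the 4 libraries of the study (Ctrl, 1-day, 3-day and 7-day). The labels name no genetic change in any group. Ctrl cells received no TGF-β1, and the 1-day, 3-day and 7-day cells received 10 ng/mL of it, renewed with the medium every 2 days. All groups were collected together, and cultures were split before they became confluent, though not in the 2 days before collection. There was 1 library per group, so no difference has a replicate check, and the comparison is given without tests or p-values. The intervals are exact 95% intervals for counting error only, and they do not cover the spread between cultures or library preparations.

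TGF-β1 acts through a pair of receptor kinases and SMAD transcription factors, and in epithelial cells it is the standard inducer of EMT, in which junctions loosen and matrix, protease and cytoskeletal genes are switched on. Beyond this program, epithelial tumor cells carry systems that buffer oxidants and metals. The transcription factor NRF2 drives detoxifying and NADPH-producing enzymes, ferritin stores iron, and metallothioneins bind zinc and copper. NF-κB, in turn, drives chemokines and its own inhibitors.

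The summed counts were 29995994 UMIs in Ctrl and 25382817 at 7-day, with a median of 30270 and 43382 UMIs per cell. These cells are part of each library, since 3372 and 2484 barcodes were listed for them. The doublet caller Scrublet marked 9 Ctrl and 11 7-day cells, which were retained, and 7 barcodes occurred in both libraries. The label of an epithelial line was checked against markers. *KRT7*, *KRT8*, *KRT18*, *KRT19* and *EPCAM* were present at 297 to 1376 CPM (UMIs scaled to a library total of 1000000) in both libraries, whereas *MUC16* (89 and 5 UMIs), *PAX8* (10 and 8 UMIs) and *WFDC2* (3 and 2 UMIs), which mark serous ovarian carcinoma, were close to absent. Markers of 3 other cell types were near 0 as well. The 8 fibroblast markers summed to 45 UMIs in Ctrl and 8 at 7-day, the 5 endothelial markers to 162 and 13, and the 7 leukocyte markers to 25 and 3. The 5 mesothelial markers summed to 2050 and 326 UMIs, of which *CALB2* (calretinin) held 2000 and 272, while *WT1* had 0 in both libraries.

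Of 21299 genes with a UMI in either library, 7829 had a mean of at least 10 CPM and were compared. Of these, 810 were at least 2-fold higher at 7-day, or 10.3%, and 351 were at least 2-fold lower, or 4.48%. The shares of 10.3% and 4.48% are those to set beside each list's counts below. The minimum is on the mean of both libraries. A gene nearly absent from Ctrl or from 7-day was therefore compared only through its level in the other library. The counts and median of each list below hold for its compared genes and not for the whole list. The median log2 ratio over all compared genes was 0.10. At 4-fold the counts were 237 higher and 105 lower, and at 16-fold they were 67 and 22. The higher genes took 3.96% of all UMIs in Ctrl and 13% at 7-day, and the lower genes 8.41% in Ctrl and 2.51% at 7-day. Below, 4 levels in a row are those of Ctrl, 1-day, 3-day and 7-day, and a pair of values is Ctrl and then 7-day. Both shifts ran through the whole cell population. The lower genes took a median of 8.39% of a Ctrl cell's UMIs (5th to 95th percentile 5.93% to 11.2%) and 2.34% of a 7-day cell's UMIs (1.71% to 3.86%). Since these genes were chosen on the same cells, the separation is a description of them.

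**Figure D1:**
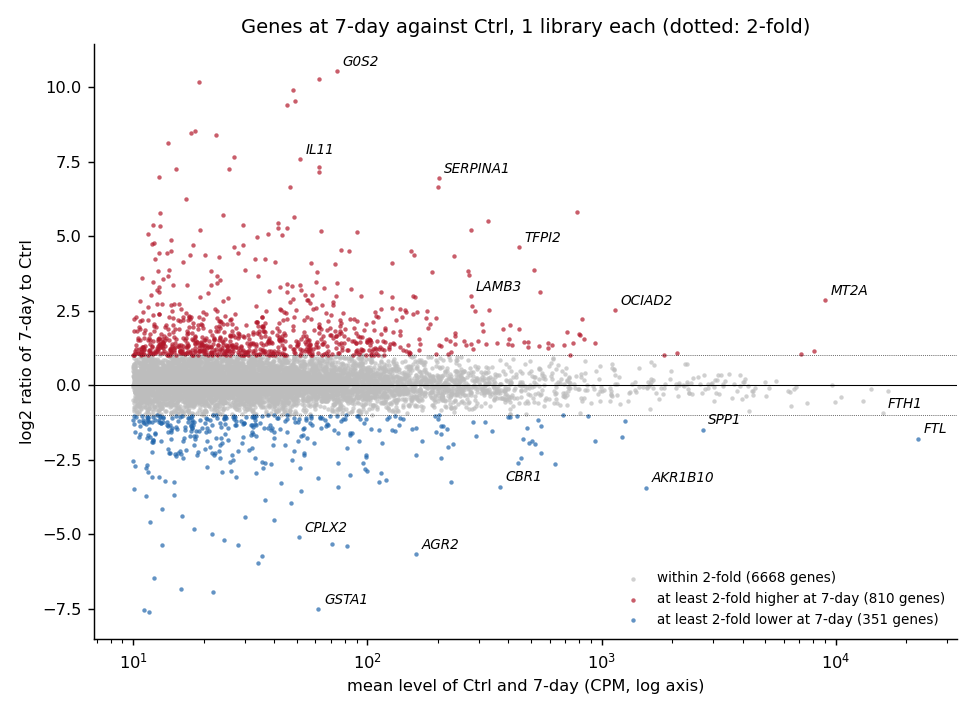
Log2 ratio of 7-day to Ctrl (y axis) against the mean level of the libraries in CPM (x axis, log scale) for the 7829 compared genes, one point per gene. Red points are the 810 genes at least 2-fold higher and blue points the 351 at least 2-fold lower, and *FTL* among the lower genes and *MT2A* among the higher ones lie furthest to the right of their colour.

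The clearest loss was in detoxifying enzymes. Of 49 genes on a list of NRF2 targets and detoxifying enzymes, 41 were compared, of which 25 were at least 2-fold lower and 2 higher, with a median log2 ratio of -1.36 against 0.10 over all compared genes. Their summed level was 1.98% of UMIs in Ctrl and 0.835% at 7-day.

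Aldo-keto and carbonyl reductases, which reduce reactive aldehydes and ketones, were among the lost genes. *AKR1B10* was at 2842, 699, 353 and 261 CPM from Ctrl to 7-day, a log2 ratio of -3.44 (interval -3.48 to -3.41). *CBR1* was at 674, 143, 68.3 and 63.2 CPM in the same order, and *CBR3* at 216, 57.6, 17.4 and 23.7 CPM. *AKR1C1* was at 758 CPM in Ctrl against 125 at 7-day, and *AKR1C2* at 356 and 84.1 CPM, but these genes are near-identical neighbours and reads could have been split between them. For each of these reductases Ctrl was the highest of the 4 libraries.

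The largest ratios on the list were those of enzymes that conjugate or oxidise toxic compounds. *GSTA1*, a glutathione transferase, was nearly lost, with 123, 20, 2.36 and 0.670 CPM from Ctrl to 7-day (log2 ratio -7.52, interval -8.30 to -6.84), although its close paralog *GSTA2* could share reads with it. The aldehyde dehydrogenase *ALDH3A1* was at 159, 22.6, 2.92 and 3.74 CPM (log2 ratio -5.41). *GSTP1*, another glutathione transferase, was at 1888 CPM in Ctrl against 562 at 7-day. *ALDH1A1* was at 720 and 207 CPM, *NQO1*, a quinone reductase, at 796 and 310 CPM, and the glutathione peroxidase *GPX2* at 1467 and 403 CPM. The drug exporters *ABCC3* (203 and 21.4 CPM) and *ABCC2* (37.9 and 9.97 CPM) were lower too.

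Enzymes of NADPH supply and the pentose phosphate pathway on the list were lower, by smaller ratios. *PGD* was at 305 and 118 CPM (log2 ratio -1.37), *ME1* at 137 and 56.4 CPM (-1.28) and *TKT* at 584 and 286 CPM (-1.03). Not every member moved this way. The NRF2 targets *TXNRD1* (670 and 756 CPM) and *SLC7A11* (342 and 361 CPM), which encode thioredoxin reductase and the cystine importer, were within 2-fold. *HMOX1*, heme oxygenase, was higher, at 20.1, 147, 88.2 and 67.7 CPM from Ctrl to 7-day. So was the glutathione transferase *GSTM4*, at 16.9 and 36.0 CPM (log2 ratio 1.09). *NFE2L2*, the gene of NRF2 itself, was at 117 and 74.1 CPM, and that of its inhibitor *KEAP1* at 37.6 and 32.8 CPM.

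In single cells the list separated the libraries. It took a median of 1.93% of UMIs in a Ctrl cell and 0.793% in a 7-day cell, and 556 of the 569 7-day cells were under 1.42%, the 5th percentile of Ctrl. The medians were alike across cell cycle phases at 7-day, with 0.797% in G1, 0.806% in S and 0.787% in G2M cells. The 7 7-day cells whose barcodes also occurred in Ctrl had a median of 0.828%.

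Promoter sequences are shown for the members with the largest ratios among those holding the letters that NRF2 prefers. RefSeq promoter sequences (250 bases before the gene start, GRCh38.p14) were found for 17 of the 25 lower members. The core TGACNNNGC of the antioxidant response element, searched on both strands, occurred in 5 of them (29.4%), in 12.4% of the 6086 compared genes with a promoter and in 11% of 27305 promoters. Capitals mark the match, which lies on the opposite strand in both. The same core was in 4 of 15 promoters of the higher NF-κB genes (26.7%) and in 4 of 7 of the metallothionein and zinc genes (57.1%), so it was not particular to the lower genes. It is a match of letters and not evidence of binding.
CBR1, chr21:36069774-36070023, plus strand: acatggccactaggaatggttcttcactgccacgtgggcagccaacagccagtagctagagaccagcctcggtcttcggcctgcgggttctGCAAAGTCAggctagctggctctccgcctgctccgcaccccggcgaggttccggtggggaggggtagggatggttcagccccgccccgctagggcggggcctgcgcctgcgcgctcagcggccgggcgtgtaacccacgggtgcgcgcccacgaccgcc
GPX2, chr14:64942746-64942995, minus strand: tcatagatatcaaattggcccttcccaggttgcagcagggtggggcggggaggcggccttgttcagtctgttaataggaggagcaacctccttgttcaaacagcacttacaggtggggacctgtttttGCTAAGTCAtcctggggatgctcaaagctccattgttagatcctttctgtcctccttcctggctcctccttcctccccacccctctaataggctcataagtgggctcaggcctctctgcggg

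**Figure D2:**
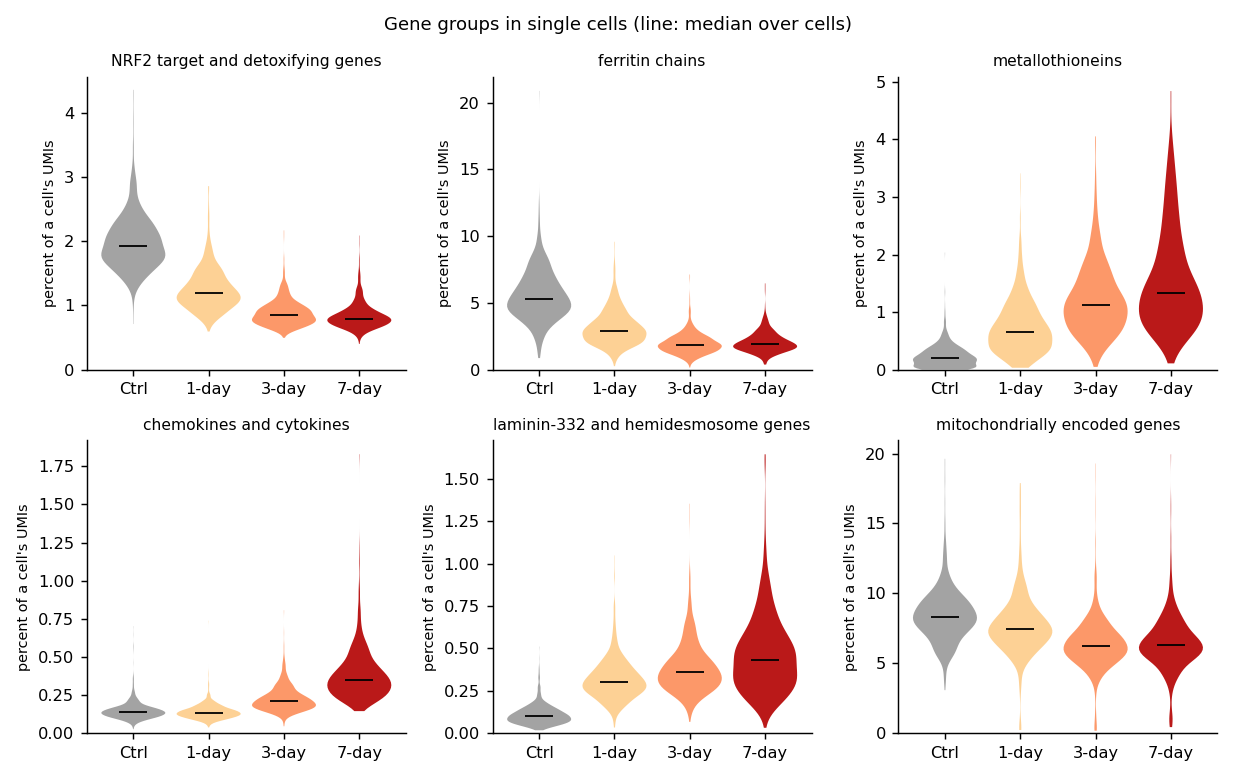
Percent of a cell's UMIs (y axis) on 6 gene groups in each library (x axis), with the width of each shape giving the density of cells and the line the median. The detoxifying genes lie at a median of 1.93% in Ctrl and 0.793% at 7-day, and the ferritin chains at 5.28% and 1.91%, while metallothioneins, chemokines and laminin-332 genes lie higher at 7-day and mitochondrially encoded genes lower.

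Ferritin gave the largest loss in absolute terms. *FTL*, the light chain of the iron store, was at 34935, 17046, 9240 and 10058 CPM from Ctrl to 7-day (log2 ratio -1.80, interval -1.80 to -1.79). *FTH1*, the heavy chain with ferroxidase activity, was at 20858, 14956, 10325 and 10833 CPM (log2 ratio -0.95), just inside the 2-fold limit. Together the chains took a median of 5.28% of UMIs in a Ctrl cell and 1.91% in a 7-day cell, and 503 of 569 7-day cells were under the 5th percentile of Ctrl. Ctrl was the highest library for both chains, and the 3-day and 7-day libraries were close to each other.

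Iron genes as a list did not share one direction. Of 13 compared, the ferritin chains included, 3 were lower and 2 higher, with a median log2 ratio of -0.06. The iron exporter *SLC40A1* (ferroportin) was at 31.2 CPM in Ctrl against 6.15 at 7-day, and the siderophore carrier *LCN2* at 28.0 and 13 CPM. *STEAP1*, of the STEAP family, was at 9.13, 6.31, 27.9 and 58.0 CPM from Ctrl to 7-day. The transferrin receptor *TFRC* was within 2-fold, with 183 and 173 CPM, as was the ferritin receptor for autophagy *NCOA4*, with 27.9 and 38.9 CPM.

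A further group that was lost comprised secreted and surface proteins of mucosal epithelium. *AGR2*, a disulfide isomerase of secretory cells, was at 316, 100, 6.85 and 6.22 CPM from Ctrl to 7-day (log2 ratio -5.67, interval -5.90 to -5.44). *TFF1*, a trefoil peptide of mucus, was at 138, 93.2, 11.7 and 3.43 CPM (-5.33), and *CLU*, the extracellular chaperone clusterin, at 69.5, 38.5, 5.35 and 1.30 CPM (-5.74). The tetraspanin *TSPAN8* was at 76.4 CPM in Ctrl against 3.35 at 7-day, and *LGALS4*, an epithelial galectin, at 57.5 and 2.68 CPM. *SPP1* (osteopontin), among the most abundant transcripts of Ctrl, was at 4002 CPM there and at 1413 CPM at 7-day.

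Of 18 compared genes on the list of ovarian carcinoma marker and secretory genes, 7 were lower and 1 higher, with a median log2 ratio of -0.16. The lower members included *ELF3*, an epithelial ETS factor (269 and 52.8 CPM), *MAL2*, of apical transport (704 and 259 CPM), and *SLPI*, a protease inhibitor of mucosal fluids (16.3 and 4.92 CPM). *AGR2* was counted in 96.7% of Ctrl and 14.8% of 7-day cells, or 91.6% and 5.75% with all cells drawn down to 15000 UMIs (63 shallower Ctrl cells and 12 at 7-day were left out). Every cell was of the same line, so no cell type that lacks a gene was at hand to measure free RNA.

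Keratins did not share one direction. *KRT13* was at 67.0, 7.04, 2.36 and 1.06 CPM from Ctrl to 7-day (log2 ratio -5.98), *KRT15* at 93.7 and 24.6 CPM (-1.93) and *KRT19* at 1178 and 581 CPM (-1.02). These 3 genes follow each other among the compared genes of chromosome 17 (41500981 to 41528308, GRCh38). *KRT17* (424 and 1253 CPM) and *KRT7* (346 and 881 CPM) were higher, and the remaining 5 of the 10 compared keratins were within 2-fold. *KRT13* was unevenly spread in Ctrl. It was counted in 36.0% of cells, and the 10% of cells with most of it held 79.1% of its UMIs, against a median of 27.2% for the 2340 genes at 50 to 500 CPM.

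Other lost genes were of varied function. *CPLX2*, complexin 2 of vesicle fusion, was at 99.5, 155, 19.5 and 2.92 CPM from Ctrl to 7-day, so that its highest level was at 1-day. *VNN2*, a pantetheinase, was at 54.8, 1.70, 0.685 and 1.34 CPM. *NR0B1* (DAX1), a nuclear receptor that represses steroid genes, was at 68.7 and 4.73 CPM, and *SPTSSB*, a subunit of serine palmitoyltransferase, at 88.8 and 5.67 CPM. *LY6E*, an interferon-stimulated surface protein, was at 370, 174, 102 and 94.6 CPM.

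Several signalling genes were among the lower ones. The receptors *FGFR3* (42.5 and 5.59 CPM) and *ERBB3* (42.0 and 17.3 CPM) and the receptor kinase inhibitor *SPRY1* (23.5 and 4.89 CPM) were lower at 7-day. So were *BAMBI*, a decoy receptor of the TGF-β family (log2 ratio -2.79), and the BMP targets *ID1* (270 and 73.2 CPM) and *ID2* (144 and 39.1 CPM). They were the only 3 lower members (15%) of a list of TGF-β feedback and ID genes that mostly went the other way. Of its 20 compared genes, 12 were higher (60%), with a median log2 ratio of 1.16. Among 16 compared Notch and Wnt genes, 5 were lower (31.25%, against 4.48% of all compared genes) and 4 higher (25%, against 10.3%). The lower ones included *NOTCH3* (18.8 and 7.92 CPM) and *WNT5A* (19.6 and 8.27 CPM), and the higher ones *JAG1*, a Notch ligand (119 and 331 CPM), and *WNT7A* (18.7 and 92.0 CPM).

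Among single genes, the metallothionein gene *MT2A* had the largest gain in CPM. As a list, metallothionein and zinc genes summed to 0.256% of UMIs in Ctrl and 1.66% at 7-day. The actin cytoskeleton list described below gained more, from 1.86% to 3.34%. *MT2A* was at 2188, 7250, 12055 and 15828 CPM from Ctrl to 7-day (log2 ratio 2.85, interval 2.84 to 2.87). *MT1X* was at 50.6, 104, 196 and 263 CPM, and *MT1F* at 14.6, 43.4, 50.7 and 56.2 CPM. These genes are close paralogs, so reads may be shared among them, and each had its lowest level in Ctrl and its highest at 7-day. The 7 zinc transporters compared with them were within 2-fold, with log2 ratios of 0.32 to 0.97, the closest to the limit being *SLC39A6* (36.5 and 71.4 CPM).

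In single cells the 11 metallothionein genes took a median of 0.193% of UMIs in Ctrl and 1.34% at 7-day, and 534 of 569 7-day cells were above the 95th percentile of Ctrl. The spread within Ctrl was wide, from 0.0132% at the 5th percentile to 0.565% at the 95th. At 7-day it ran from 0.507% to 3.30%.

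Metallothionein promoters are shown with the letters of the metal response element core. The core, TGCACNC or TGCGCNC on either strand, was found in 4 of the 7 promoters available for the compared metallothionein and zinc genes, in 35.6% of the compared genes with a promoter and in 24.7% of all promoters. The members with a match besides *MT2A* and *MT1X* were the zinc transporters *SLC30A1* and *SLC39A6*. The same core was in 6 of 15 promoters of the higher NF-κB genes (40%) and in 6 of 17 of the lower detoxifying genes (35.3%). It is a match of letters and not evidence of binding. *MT2A* held 7 matches and *MT1X* held 4, marked in capitals.
MT2A, chr16:56608334-56608583, plus strand: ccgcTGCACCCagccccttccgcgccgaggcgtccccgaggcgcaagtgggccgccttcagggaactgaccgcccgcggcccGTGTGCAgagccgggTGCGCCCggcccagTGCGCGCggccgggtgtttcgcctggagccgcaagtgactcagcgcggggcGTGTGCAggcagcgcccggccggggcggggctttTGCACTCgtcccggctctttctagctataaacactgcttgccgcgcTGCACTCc
MT1X, chr16:56682220-56682469, plus strand: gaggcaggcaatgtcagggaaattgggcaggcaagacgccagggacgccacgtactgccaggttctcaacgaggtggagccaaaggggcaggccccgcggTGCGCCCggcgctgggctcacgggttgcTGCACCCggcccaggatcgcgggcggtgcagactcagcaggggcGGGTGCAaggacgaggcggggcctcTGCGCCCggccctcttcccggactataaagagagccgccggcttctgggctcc

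NF-κB genes and chemokines were gained as a group. Of 23 compared NF-κB subunits and feedback genes, 18 were higher and 0 lower by the 2-fold limit, with a median log2 ratio of 1.61. Of 23 compared chemokines and cytokines, 17 were higher and 0 lower, with a median of 1.72. The share of all compared genes that were higher was 10.3%. Members nearly absent from Ctrl, such as *CCL2* with 0 UMIs there, were compared only because of their 7-day level. Another 23 listed chemokines and cytokines were too low to be compared. The counts and medians therefore describe the compared members and not the whole lists.

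Among the NF-κB genes, the subunit genes *RELB* (17.3, 34.1, 51.2 and 64.7 CPM) and *NFKB2* (3.97, 10.7, 15.4 and 17.9 CPM) were each lowest in Ctrl and highest at 7-day. *TNFAIP3*, the deubiquitinase A20 that limits NF-κB, was at 1.87, 3.82, 14 and 38.7 CPM, and *TRAF1* at 1.90, 4.8, 31.0 and 81.5 CPM (log2 ratio 5.42). *BIRC3*, an inhibitor of apoptosis, was at 12.4, 2.15, 8.18 and 39.3 CPM from Ctrl to 7-day. *RELA* (28.8 and 59.2 CPM) and *NFKBIA*, the gene of IκBα (42.5 and 85.8 CPM), were close to the 2-fold limit.

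The CXC chemokines that attract neutrophils had their lowest level at 1-day and their highest at 7-day, apart from *CXCL8*, whose Ctrl and 1-day levels were close. *CXCL2* was at 10.3, 3.67, 16.7 and 93.5 CPM from Ctrl to 7-day (log2 ratio 3.18). *CXCL1* was at 114, 43.4, 81.2 and 361 CPM, and *CXCL3* at 9.37, 1.40, 7.81 and 37.2 CPM. *CXCL8* was at 87.3, 85.4, 157 and 487 CPM. With *CXCL6* (12.2 and 27.8 CPM) these are 5 consecutive compared genes on chromosome 4 (73740519 to 74099196, GRCh38), and all 5 were at least 2-fold higher.

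Cytokines of other families were higher as well. *IL32*, an inducer of inflammatory cytokines, was at 3.93, 33.2, 265 and 395 CPM from Ctrl to 7-day (log2 ratio 6.65, interval 6.39 to 6.93). *IL11*, of the IL-6 family, was at 0.533, 63.1, 135 and 103 CPM (log2 ratio 7.59, or 6.71 to 8.84 over the alternatives), with its highest level at 3-day. *TNF* was at 0.200 CPM in Ctrl against 30.4 at 7-day, and *IL1A* at 14.8 and 84.5 CPM. *CCL2*, which attracts monocytes, had 0 UMIs in Ctrl and 3162 at 7-day (125 CPM), at least 1246-fold higher when computed against 3 counts in Ctrl, and the exact 95% interval of its log2 ratio, which allows slightly more than 3 counts, began at 9.98. *CX3CL1* (21.4 and 11.2 CPM) and *PDGFA* (19.5 and 13.4 CPM) were the only compared members with a log2 ratio below 0.

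Gained genes differed in how evenly they were shared out among cells. *IL32* was counted in 97.9% of 7-day cells and 5.57% of Ctrl cells (91.6% and 3.45% after thinning). *CCL2* was counted in 54.3% of 7-day cells (33.9% after thinning), and the 10% of cells with most of it held 79.9% of its UMIs, as against 26.7% for *IL32*. *CCL5*, which attracts T cells, was counted in 41.7% of 7-day cells, and *G0S2*, an inhibitor of lipolysis, in 39.9%. The 10% of cells with most held 84.9% of the *CCL5* UMIs and 90.7% of those of *G0S2*. The median over 2623 genes at 50 to 500 CPM at 7-day was 24.5%, with a 95th percentile of 32.0%. *G0S2*, *CCL5* and *CCL2* had the highest values of all these genes.

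Promoters of the gained chemokine genes are shown with the κB motif of NF-κB, searched on both strands. It occurred in 6 of the 12 promoters available for the 17 higher members, in 4.45% of compared genes with a promoter and in 3.52% of all promoters. The members were *CCL20*, *CXCL1*, *CXCL2*, *CXCL3*, *CXCL6* and *IL32*, and 4 of these lie in the chromosome 4 cluster and are paralogs. The κB motif was also in 4 of 15 promoters of the higher NF-κB genes (26.7%) and in 2 of 17 of the lower detoxifying genes (11.8%). A site of the transcription factor AP-1 (TGANTCA) was in 4 of the same 12 chemokine promoters (33.3%). It was in 3.66% of compared genes with a promoter, 3 of 17 lower detoxifying genes (17.6%) and 0 of 15 higher NF-κB genes. These are matches of letters and not evidence of binding. The pair with the largest log2 ratios is printed, with the κB match in capitals.
IL32, chr16:3065153-3065402, plus strand: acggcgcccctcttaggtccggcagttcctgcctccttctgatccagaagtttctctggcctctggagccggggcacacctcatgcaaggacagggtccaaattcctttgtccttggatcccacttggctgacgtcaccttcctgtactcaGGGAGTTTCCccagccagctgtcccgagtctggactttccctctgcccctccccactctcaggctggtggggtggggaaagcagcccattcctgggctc
CXCL2, chr4:74099196-74099445, minus strand: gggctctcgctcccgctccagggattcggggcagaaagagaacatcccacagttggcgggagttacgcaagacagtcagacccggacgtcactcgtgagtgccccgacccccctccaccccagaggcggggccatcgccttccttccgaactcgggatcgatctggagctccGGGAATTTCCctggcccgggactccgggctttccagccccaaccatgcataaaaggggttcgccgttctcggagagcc

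**Figure D3:**
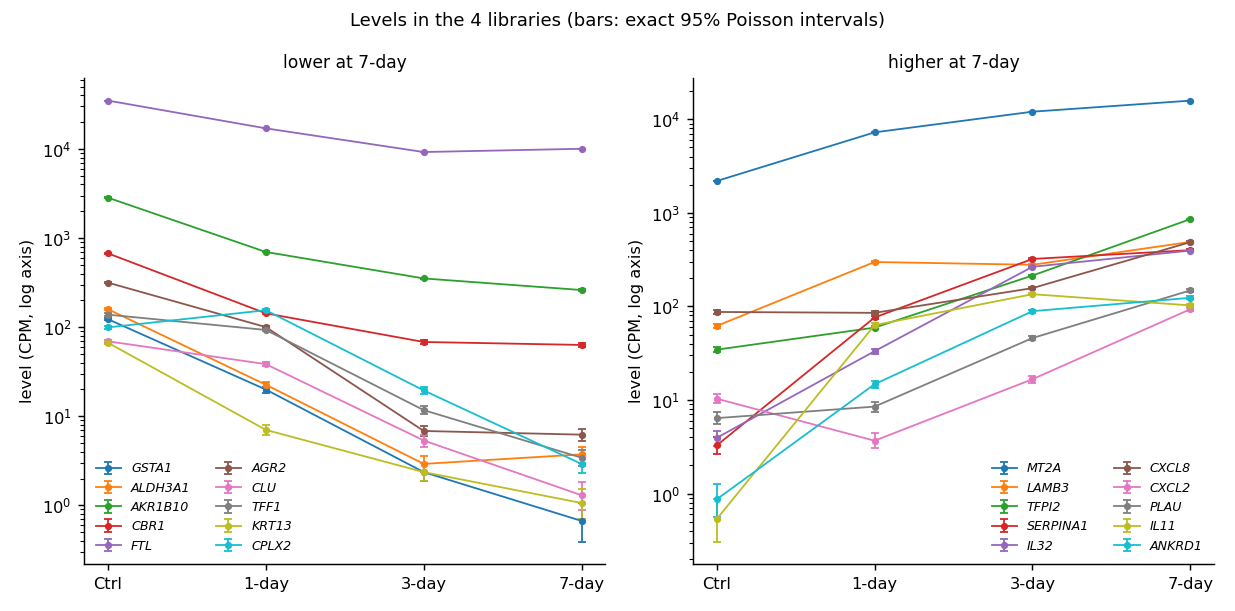
Level in CPM (y axis, log scale) of 10 genes lower at 7-day (left) and 10 higher (right) in the 4 libraries (x axis), with exact 95% Poisson intervals as bars. *FTL*, *AKR1B10* and *CBR1* are already lower at 1-day, *CPLX2* peaks at 1-day before it is lost, and *CXCL2* dips at 1-day before its highest level of 93.5 CPM at 7-day.

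Genes of cell adhesion to basement membrane formed another gained group. Laminin-332 anchors epithelia to the basement membrane. Its chain genes *LAMB3*, at 61.8, 298, 279 and 490 CPM from Ctrl to 7-day, and *LAMA3*, at 7.80, 52.0, 54.4 and 76.6 CPM, were each lowest in Ctrl and highest at 7-day. Of 11 compared laminin-332 and hemidesmosome genes, 8 were higher and 0 lower, with a median log2 ratio of 1.33. The 3 within 2-fold were the hemidesmosome genes *DST* (49.5 and 54.4 CPM), *ITGA6* (46.4 and 69.6 CPM) and *PLEC*. The laminins of other basement membranes did not follow, since *LAMA5* was at 37.1 and 13.6 CPM, *LAMB1* at 51.1 and 47.0 CPM and *LAMC1* at 33.2 and 37.3 CPM.

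Of 11 compared integrins, 8 were higher and 0 lower, with a median of 1.78. They included *ITGB6* (29.0 and 227 CPM), which pairs with *ITGAV* (45.1 and 248 CPM) in a receptor that activates latent TGF-β. *ITGA2*, of a collagen receptor, was at 36.7 and 284 CPM, and *ITGA5*, of a fibronectin receptor, at 1.33 and 34.7 CPM. *ITGAE* (120 and 114 CPM) was within 2-fold. *ITGA3*, *ITGA6*, *ITGB1* and *ITGB4* are also on the laminin-332 and hemidesmosome list, so the counts of these lists overlap.

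Proteases of the plasminogen system and their inhibitors were higher together. *PLAU* (urokinase) was at 6.40, 8.5, 45.9 and 149 CPM from Ctrl to 7-day, and its receptor *PLAUR* at 8.27, 15.8, 80.2 and 138 CPM. The Kunitz inhibitor *TFPI2* was at 34.5, 59.4, 214 and 857 CPM (log2 ratio 4.64), and *SERPINE2* at 35.5, 677, 1117 and 500 CPM. *MMP9* was at 2.10 and 81.2 CPM. In all, 13 of 22 compared proteases and inhibitors were higher and 2 lower, the latter *MMP7* (34.3 and 8.08 CPM) and *MMP28* (62.6 and 22.3 CPM). Some higher members were compared only because of their 7-day level, such as *MMP9*, *ADAM19* (0.0333 and 38.2 CPM) and *CST6* (0.433 and 33.2 CPM). Another 13 listed genes were too low to be compared.

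Among gained genes of other roles was *SERPINA1*, the antitrypsin gene. It was at 3.27, 76.2, 322 and 399 CPM from Ctrl to 7-day (log2 ratio 6.93, interval 6.65 to 7.24), and was counted in 98.1% of 7-day cells and 6.00% of Ctrl cells (91.7% and 4.02% after thinning). *ANKRD1*, a target of the YAP coactivator in many cells, was at 0.867, 14.8, 89.0 and 124 CPM (log2 ratio 7.16, or 6.34 to 9.49 over the alternatives), and *FGF5*, a growth factor, at 0.267, 3.61, 30.4 and 53.8 CPM. *CCDC80*, a matrix protein, was at 0.767 and 123 CPM, and *TSPAN2*, a tetraspanin, at 0.333 and 51.1 CPM. *OCIAD2*, of endosomes and mitochondria, was at 341, 1221, 2113 and 1937 CPM, and *CRCT1* at 289, 1844, 1866 and 1357 CPM.

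Genes on the actin cytoskeleton list, called actin genes here, were gained broadly and by smaller ratios. The list also holds *KRT8* and tubulin genes. Of 37 compared, 19 were higher and 0 lower, with a median log2 ratio of 1.06, and their sum was 1.86% of UMIs in Ctrl and 3.34% at 7-day. *TMSB10*, which sequesters actin monomers, was at 5002, 6321, 8124 and 11190 CPM from Ctrl to 7-day. *TPM1* (tropomyosin) was highest at 1-day, with 284, 1920, 1546 and 688 CPM. *MYLK*, the myosin light chain kinase, was at 0.567 and 23.7 CPM.

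The classical EMT genes are given briefly, since all 10 of the 20 listed that reached the minimum were higher (median log2 ratio 2.95). The sum of the list was 637, 5222, 4898 and 3270 CPM from Ctrl to 7-day, so it was highest at 1-day. *MMP2*, counted in 0% of Ctrl cells and 77.2% of 7-day cells, reached the minimum through its 7-day level alone. So did *ITGA5*, at 1.33 and 34.7 CPM. The count and median therefore describe the 10 compared genes and not the 20 listed. *VIM*, the mesenchymal filament gene, did not reach the minimum, with 0 UMIs in Ctrl and 6 at 7-day. *ZEB1* was at 1 and 14 UMIs, and *CDH2* at 9 and 61 UMIs.

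Growth factors and their receptors were among the higher genes. The EGF receptor ligands *AREG* (375, 218, 394 and 1232 CPM in Ctrl, 1-day, 3-day and 7-day), *HBEGF* (14.7, 14.8, 36.4 and 99.4 CPM) and *TGFA* (53.4, 41.6, 77.3 and 152 CPM) had their highest level at 7-day. The receptor *EGFR* was at 33.0, 228, 235 and 196 CPM. *AXL*, a receptor kinase, was at 1.77, 1.43, 5.63 and 30.8 CPM, so it was close to Ctrl at 1-day, and its log2 ratio at 7-day was 4.12 over all cells and 1.39 between G1 cells. On the list of growth factor, cyclin D and *MYC* genes that holds them, 10 of 21 compared genes were higher (47.6%) and 3 lower (14.3%). The shares over all compared genes were 10.3% and 4.48%. Among 26 compared CDK inhibitor and p53 target genes, 12 were higher (46.2%) and 1 lower (3.85%). The higher ones included *CDKN1A* (p21) at 46.4 and 167 CPM and *GADD45A* at 250 and 680 CPM.

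Antigen presentation genes showed smaller ratios. Of 15 compared, 7 were higher and 0 lower, with a median log2 ratio of 0.85. *TAP1*, the peptide transporter, was at 5.13, 9.68, 16.1 and 24.3 CPM. *HLA-C* was at 154 and 398 CPM and *HLA-B* at 42.5 and 93.6 CPM, though these genes resemble each other and reads could be misplaced among them. *B2M* was within 2-fold, with 190 and 303 CPM. Of 13 compared interferon-stimulated genes, 4 were higher (30.8%, against 10.3% of all compared genes) and 1 lower (7.69%, against 4.48%).

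Genes on the list of epithelial junction and transcription genes were mostly kept. Not every junction gene is on it. On other lists, *PPL* (log2 ratio -2.62) and *PVRL3* (-2.18) were lower, and *CLDN7* (75.8 and 131 CPM) was within 2-fold. Of 28 compared on the junction and transcription list, 25 were within 2-fold, 3 were higher and 0 lower, with a median log2 ratio of 0.19. *CDH1* (E-cadherin) was at 75.7, 119, 94.6 and 81.7 CPM from Ctrl to 7-day. *EPCAM* was at 331 and 297 CPM, and *OCLN* (occludin) at 24.1, 10.3, 18.2 and 25 CPM. The splicing factor of epithelia *ESRP1* was at 43.9 and 50.9 CPM and the transcription factor *GRHL2* at 12.9 and 14.3 CPM. *CDH3* (P-cadherin) was higher, at 12.2 and 72.3 CPM, and *KLF5* (123 and 61.5 CPM) lay at the 2-fold limit.

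Most genes of cell division were within 2-fold of Ctrl at 7-day. Of 46 compared replication genes, 1 was higher and 1 lower, with a median log2 ratio of -0.16, and of 51 compared mitosis genes 0 were higher and 1 lower, with a median of -0.07. Between G1 cells alone the replication median was -0.83, and over all phases 26.2% of 7-day cells were under the 5th percentile of Ctrl for that list. By Seurat's phase lists, 688 of 933 Ctrl cells (73.7%, interval 70.8% to 76.5%) and 356 of 569 7-day cells (62.6%, 58.4% to 66.6%) were in S or G2M. The shares were 72.9% and 63.6% after thinning. At 1-day and 3-day they were 21.8% and 52.3%. The phases were called from RNA alone.

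Ribosomal protein genes were level, with 0 of 82 compared past 2-fold and a sum of 24.8% and 23.6% of UMIs. Transcripts encoded by mitochondrial DNA were unequally lower. Of the 13 genes 3 were past 2-fold and 10 within it, with a median log2 ratio of -0.56, and their sum was 8.36% and 6.40% of UMIs. *MT-ND6* (322 and 117 CPM) was past the 2-fold limit, and *MT-CO1* (9631 and 9607 CPM) was level. The 79 nuclear respiratory chain genes had a median of -0.35, with 0 higher and 1 lower. The mitochondrial share was also used to filter cells, and the part of RNA quality in this difference was not tested. With cells above 10% mitochondrial UMIs left out, the median of the 13 genes was -0.50.

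**Figure D4:**
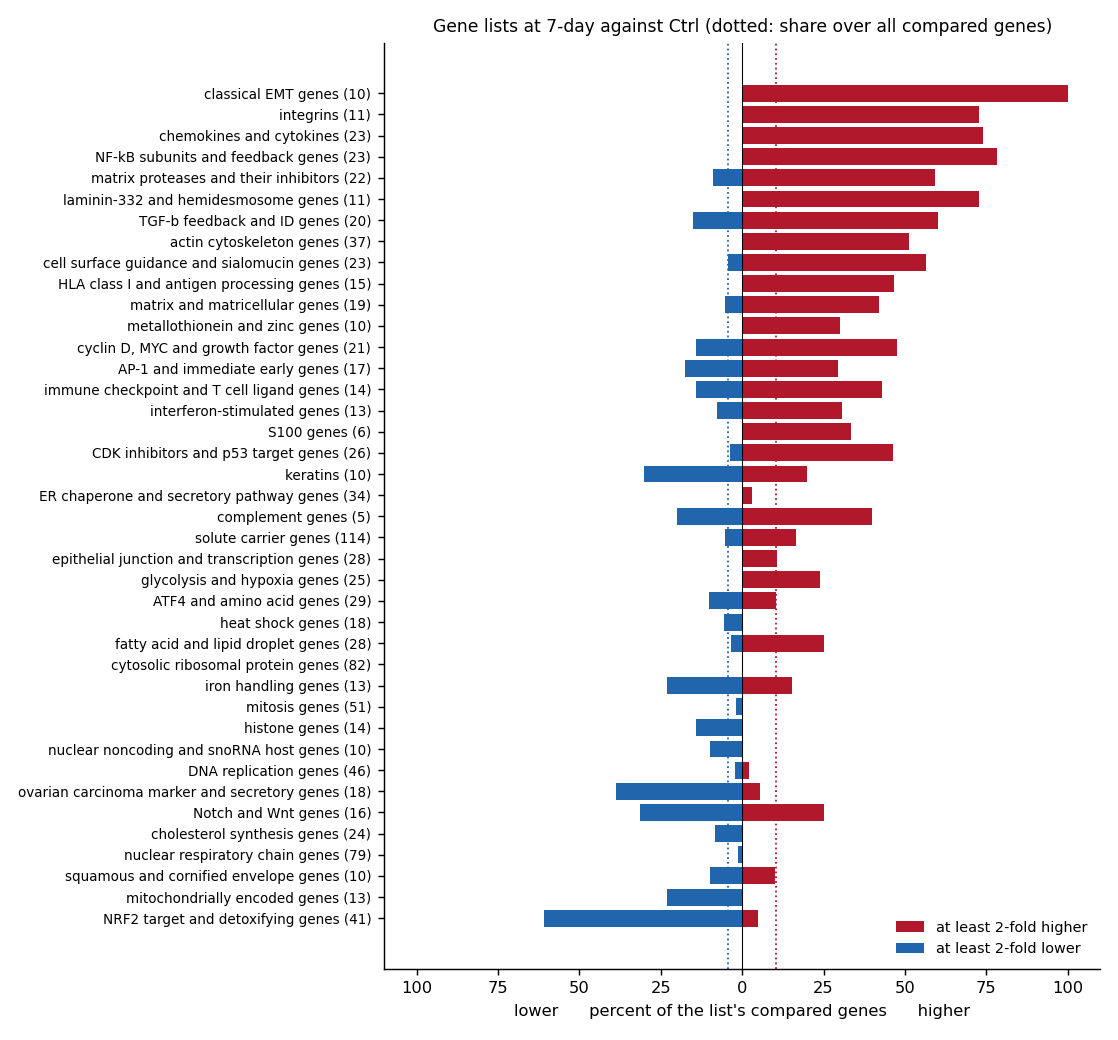
Percent of each list's compared genes that were at least 2-fold higher (red, to the right) or lower (blue, to the left) at 7-day, with the number of compared genes in brackets and lists ordered by median log2 ratio. The dotted lines are the shares over all compared genes (10.3% and 4.48%), and the detoxifying genes have the largest lower share.

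Some of the lost and gained groups varied against each other among untreated cells, and others did not. Over 870 Ctrl cells thinned to 15000 UMIs, the ferritin chains had a Spearman rho of -0.525 with metallothioneins, -0.631 with actin genes and -0.476 with laminin-332 genes. Laminin-332 and actin genes had a rho of 0.664 with each other. The detoxifying list had a rho of 0.233 with ferritin, -0.317 with metallothioneins, -0.402 with actin and -0.400 with laminin-332 genes. Chemokines, gained as well at 7-day, had a rho of -0.066 with ferritin and -0.017 with the detoxifying list, and the mitochondrially encoded genes had -0.290 with the detoxifying list. So Ctrl cells with less ferritin RNA had more RNA of metallothioneins, actin and laminin-332 genes, but hardly so of chemokines. Over 557 7-day cells the rho of ferritin with metallothioneins was 0.043, with actin genes 0.172 and with laminin-332 genes 0.030, whereas that of laminin-332 with actin genes was 0.597. In the same cells the detoxifying list kept negative values, with a rho of -0.292 with laminin-332 genes, -0.176 with actin genes and -0.123 with metallothioneins. Cells of 1 library share their culture and preparation, and the groups are shares of one total, so that a larger ferritin share lowers the others. These values are descriptions and were not tested.

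**Figure D5:**
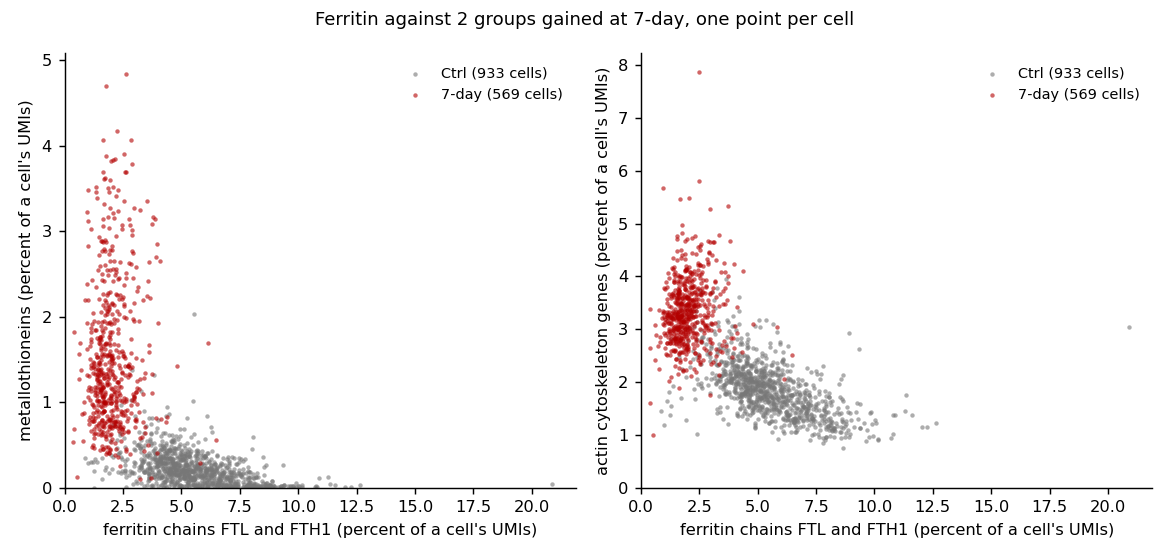
Percent of a cell's UMIs on metallothioneins (left, y axis) and actin genes (right, y axis) against the percent on the ferritin chains (x axis), one point per cell, for 933 Ctrl (grey) and 569 7-day (red) cells without thinning. In Ctrl both groups lie lower where ferritin is higher, and the 7-day cells lie at low ferritin with little slope.

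Cell cycle phase moved with part of the gain. At 7-day the laminin-332 list took a median of 0.572% of UMIs in G1 cells, 0.393% in S and 0.335% in G2M, while in Ctrl the medians were 0.102%, 0.1% and 0.0927%. Chemokines and cytokines took 0.405%, 0.312% and 0.315% at 7-day. Whether G1 cells differ in these genes beyond counting error was not tested. Between G1 cells alone, 1028 genes were at least 2-fold higher at 7-day and 543 lower.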

How the data were processed

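Single-cell libraries of OVCA420 cells (Ctrl, 1-day, 3-day and 7-day, 1 each) were used. The authors made the files with Cell Ranger 2.0.1 on GRCh38 (submitters' processing notes) and deposited raw UMI counts per gene and cell, without normalization. Only part of each matrix was analysed here, in barcode order, and the last cell of that part was dropped as incomplete. Cells with more than 200 genes and at most 20% mitochondrial UMIs were retained, and the 20% limit was set here. Ambient RNA was not removed.

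Counts were summed over cells and scaled to CPM with exact Poisson intervals. Log2 ratios have exact conditional intervals, at 95%. With 1 library a side no test was made, since cells are not replicates. Genes with a mean of at least 10 CPM were compared, and 2-fold was the limit. Folds against 0 UMIs were computed against 3 counts per library. Scrublet (scanpy 1.11.5) marked doublets, and phases used Seurat 5.3.0 lists. Analyses ran in Python 3.11.15 (scipy 1.17.1) and R 4.3.3. Positions are from GENCODE 44 by Ensembl identifier (7814 of 7829 compared genes matched), and promoters from RefSeq by symbol. The functions were tested on counts simulated with Poisson error only. That checks the calculation and not the spread between cells or cultures.

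The comparison, the 40 gene lists and the named genes were chosen with earlier results of these data known. Named genes were the 12 highest and 12 lowest log2 ratios where a library reached 50 CPM, the 10 largest CPM rises and falls, and per list the 2 highest, 2 lowest and the most abundant member. Other list members are named to show a list's range or family and were chosen after their values were seen, as were the motifs. Alternatives were other scalings, filters, thinning to 15000 UMIs, G1 cells, doublets or shared barcodes left out, and parts of the cells. A few genes are not reported here. Lists not described in the report are given in its plot of gene lists.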

Additional observations from a re-analysis of the deposited data

Results flagged for a closer look

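Of the compared genes, 20 had log2 ratios past 2-fold in opposite directions at 1-day and at 7-day, both against the same Ctrl library. At 7-day 14 of them were higher and 6 lower, and 10 of the 20 are in a gene list. The difference was not tested, with 1 library per time point. Of these 10, *LGALS3* (galectin-3) was at 1.60 at 1-day and -1.44 at 7-day. The other 9 in a list were lower at 1-day and higher at 7-day. *CXCL3* was at -2.75 and 1.99, *BIRC3* at -2.52 and 1.67, *CXCL2* at -1.49 and 3.18, *CXCL1* at -1.40 and 1.66, and *CXCL6* at -1.11 and 1.19. *DUSP4*, a MAP kinase phosphatase, was at -1.60 and 1.16, *CCNE1* (cyclin E1) at -1.37 and 1.00, *IL1RN*, the interleukin-1 receptor antagonist, at -1.24 and 1.03, and the protease *ADAMTS1* at -1.08 and 1.75.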

How the results depend on the processing

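The counts of 810 higher and 351 lower genes stayed within 1.5-fold under both other scalings, the mean over cells, thinning, the 10% mitochondrial limit, without doublets, in either part of the cells and, chosen after seeing the data, without shared barcodes. Among G1 cells the lower count was 543, of which 318 were among the 351. With a mean of at least 50 CPM the counts were 281 and 116, since fewer genes were compared. With no CPM minimum they were 2758 and 2368, since more were compared, and at 4-fold they were 237 and 105. Median-of-ratios scaling gave 727 and 407, since it moved the median of all compared genes from 0.10 to 0.02.

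Of 206 named genes, 128 were past 2-fold, and all 128 kept their sign under every alternative. Each alternative reused the libraries in which the 128 were past 2-fold, so this is no check by replicates. The size of the ratios was less firm, since 34 of the 128 moved by over 1.5-fold in at least 1 alternative. *ADAM19*, with 1 Ctrl UMI, ranged from 7.16 to 10.45 against 10.16. At most 5 fell inside 2-fold under any 1 of them, among them *ACTB*, *S100A2*, *S100A11*, *CCNE1* and *CD55*. The median of the detoxifying list ranged from -1.43 to -1.29, that of chemokines from 1.65 to 1.83, that of replication genes from -0.83 (G1 cells) to -0.05, and that of mitosis genes from -0.39 (G1 cells) to 0.04 (thinned).

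No paired analysis was possible because each group has 1 library. Replicates could not be left out for the same reason. Counting error is small for genes with many UMIs and larger for those with few in 1 library. For *G0S2*, with 3 Ctrl UMIs, the interval of the log2 ratio is 8.99 to 12.8. The spread between cultures is not measured. Genes under 10 CPM were not compared.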

Other observations

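Neighbouring genes changed together at several places. Besides the CXC chemokines and the keratins, 3 consecutive compared genes on chromosome 11 (111245725 to 111308735, GRCh38) were lower. *C11orf53* was at 24.3 CPM in Ctrl against 0.276 at 7-day, *COLCA1* at 35.0 and 1.22 CPM and *COLCA2* at 25.1 and 1.42 CPM. *COLCA1* and *COLCA2* overlap each other, so reads may be shared. On chromosome 17 (19648136 to 19748943) *ALDH3A2* (39.7 and 11.1 CPM), the drug exporter *SLC47A2* (31.1 and 6.58 CPM) and *ALDH3A1* (159 and 3.74 CPM) were lower. On chromosome 8 the TRAIL receptor genes *TNFRSF10B*, *TNFRSF10D* and *TNFRSF10A* were higher as a run. These places were picked after their values were seen.

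Of 114 compared solute carriers, 19 were higher (16.7%, against 10.3% of all compared genes) and 6 lower (5.26%, against 4.48%). *SLC16A3*, a lactate exporter, was at 1.40, 5.68, 24.0 and 57.7 CPM in Ctrl, 1-day, 3-day and 7-day. *SLC2A6*, of the glucose transporter family, was at 2.23 and 44.4 CPM, and *SLC7A2*, which carries arginine, at 10.1, 9.17, 39.1 and 111 CPM. Genes of fatty acids and lipid droplets had 7 higher (25%) and 1 lower (3.57%) of 28 compared. Their median log2 ratio was -0.01, and it changed sign in 5 of the alternatives. The higher ones included *ANGPTL4*, a lipase inhibitor, at 5.00 and 176 CPM, and *FABP5* at 163 and 598 CPM. Of 24 compared cholesterol synthesis genes, 0 were higher and 2 lower (8.33%, against 4.48% of all compared genes). By chromosome, the median log2 ratio of the nuclear genes lay between 0.03 (chromosome 12) and 0.16 (chromosome 4).

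Some lost genes below 50 CPM had ratios as large as those named. *CEACAM6* was at 43.4 and 0.355 CPM, *AQP3* at 42.3 and 1.34 CPM, and *RDH12*, a retinol dehydrogenase, at 23.1 and 0.118 CPM. Of 569 7-day cells, 1 lay inside the Ctrl range of both the detoxifying list (at or above the 5th percentile) and the metallothioneins (at or below the 95th).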
